A study of Mus musculus with 10 samples.

Results

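The genes described here make cholesterol and fatty acids, switch that synthesis on or carry cholesterol out of the cell. They were 32 genes named by symbol, and 31 of them, with at least 10 counts over 10 libraries, were used out of 20269 genes that reached this minimum and 52550 genes counted. The remaining one, Mvd, which encodes mevalonate diphosphate decarboxylase, had 0 counts in all 10 libraries, and 100% of its body lies inside Gm20388 on the opposite strand. No measured value entered the choice of the 32 genes, but it was made with earlier results of these data known.

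The libraries are bulk RNA sequencing of cells grown out of mouse hematopoietic stem and progenitor cells after transformation with MLL-AF9, a leukemic fusion gene. In the MLL-AF9-i139 clones, addition of doxycycline (DOX) induces miR-139, a microRNA. Each of 3 such clones was sequenced once under DOX (5 µg/mL) and once without it, and the labels give 48 h of DOX for clones 1 and 2 and 72 h for clone 3, with no time for the untreated cultures. In MLL-AF9-ieGFP, DOX induces eGFP instead, and 1 clone was sequenced at 48 h and at 72 h, each time with and without DOX, so its 4 libraries are not separate clones. The length of DOX treatment and clone 3 cannot be told apart, and neither can the ieGFP construct and its single clone. The totals ran from 35133308 to 47089725 counts per library. Most progenitor markers were high. Kit had a median of 144 CPM (normalized counts, scaled to one common library total with TMM), Mpo 674 and Elane 1270, but 2 of the 9 progenitor markers were at or near 0, Cd34 with a median of 0.0259 CPM and Itgam with fewer than 10 counts. The B-cell, T-cell and erythroid markers were low, and the highest median among them was 1.95 CPM, for Klf1. Mir139, the gene of the induced microRNA, had 0 counts over the 10 libraries, so the counts hold no check of its induction.

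Cells make cholesterol from acetyl-CoA through mevalonate, farnesyl diphosphate, squalene and lanosterol. The transcription factor SREBP2, from Srebf2, switches on these enzymes when membrane sterol is low, and SREBP1, from Srebf1, mainly those of fatty acid synthesis. SCAP escorts both factors out of the endoplasmic reticulum, and INSIG1 holds SCAP back when sterol is plentiful. The liver X receptors (LXRs), from Nr1h2 and Nr1h3, are nuclear receptors that respond to oxysterols. They raise the efflux transporters ABCA1 and ABCG1, the ubiquitin ligase MYLIP, which degrades lipoprotein receptors, and also Srebf1. Macrophages and other myeloid cells are known for strong LXR-driven efflux.

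Promoter sequences of 4 members, whole for Abca1 and in part for the others, are shown because they hold the textbook elements of both arms. The promoter table covers 25 of the 32 members, with 32 promoters of 300 bases each. The LXR element, a direct repeat spaced by 4 bases, was searched on both strands as NGGTNANNNNNGGTCA and was found in 3 members' promoters and in 0.207% of all 32851 promoters. The sterol regulatory element, searched as TCACNCCAC on both strands, was found in 1 member and in 1.24% of all promoters. The whole promoter of Abca1, from RefSeq on GRCm38.p6, chr4:53159846-53160145, minus strand, is given 5′ to 3′ with the LXR element in capitals.
Abca1 promoter: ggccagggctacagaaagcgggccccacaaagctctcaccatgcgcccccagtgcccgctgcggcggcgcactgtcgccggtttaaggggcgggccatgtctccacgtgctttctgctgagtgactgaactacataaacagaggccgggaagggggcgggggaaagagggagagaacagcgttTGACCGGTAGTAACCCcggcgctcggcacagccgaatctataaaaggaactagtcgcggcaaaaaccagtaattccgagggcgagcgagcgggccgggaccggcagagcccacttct
The 40 bases around the LXR element of Abca1 (chr4:53159935-53159974), Fasn (chr11:120824745-120824784) and Srebf1 (chr11:60210626-60210665), all on the minus strand, and 33 bases around the sterol element of Hmgcs1 (chr13:119690202-119690234, plus strand) follow in the same form, with the match in capitals.
Abca1: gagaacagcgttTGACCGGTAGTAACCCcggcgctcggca
Fasn: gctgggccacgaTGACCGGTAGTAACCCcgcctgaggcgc
Srebf1: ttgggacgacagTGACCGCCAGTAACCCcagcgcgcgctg
Hmgcs1: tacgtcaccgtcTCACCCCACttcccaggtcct
Abca1 and Fasn share the same 16-base match, and the element of Abca1 starts 67 bases before its start site. These letters are a description of the sequence and not a measure of binding. The table has no entry for Abcg1, Sqle, Fdps, Fdft1, Stard4, Scd1 and Scd2.

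Of the 31 members, 0 passed an adjusted p of 0.05 for the effect of DOX in the MLL-AF9-i139 clones in edgeR's quasi-likelihood test, where 0.0624% of 19223 genes tested did. An unadjusted p under 0.05 was reached by 8 members and by 20.6% of genes tested (edgeR). With DESeq2 6 members passed, which were Abca1, Abcg1, Nr1h2, Acaca, Acat2 and Mvk, against a background of 8.09% of genes. With the clone as a block, 3 members passed (edgeR), against 12.4% of genes, and these were Nr1h2 and Mylip, which rose, and Acaca, which fell. The 3 tallies do not hold the same members. The efflux transporters Abca1 and Abcg1 were 2.53 to 4.55 times higher with DOX in clones 1 and 2 and close to their untreated level in clone 3. The plot of changes by clone gives every member with at least 100 counts.

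**Figure D1:**
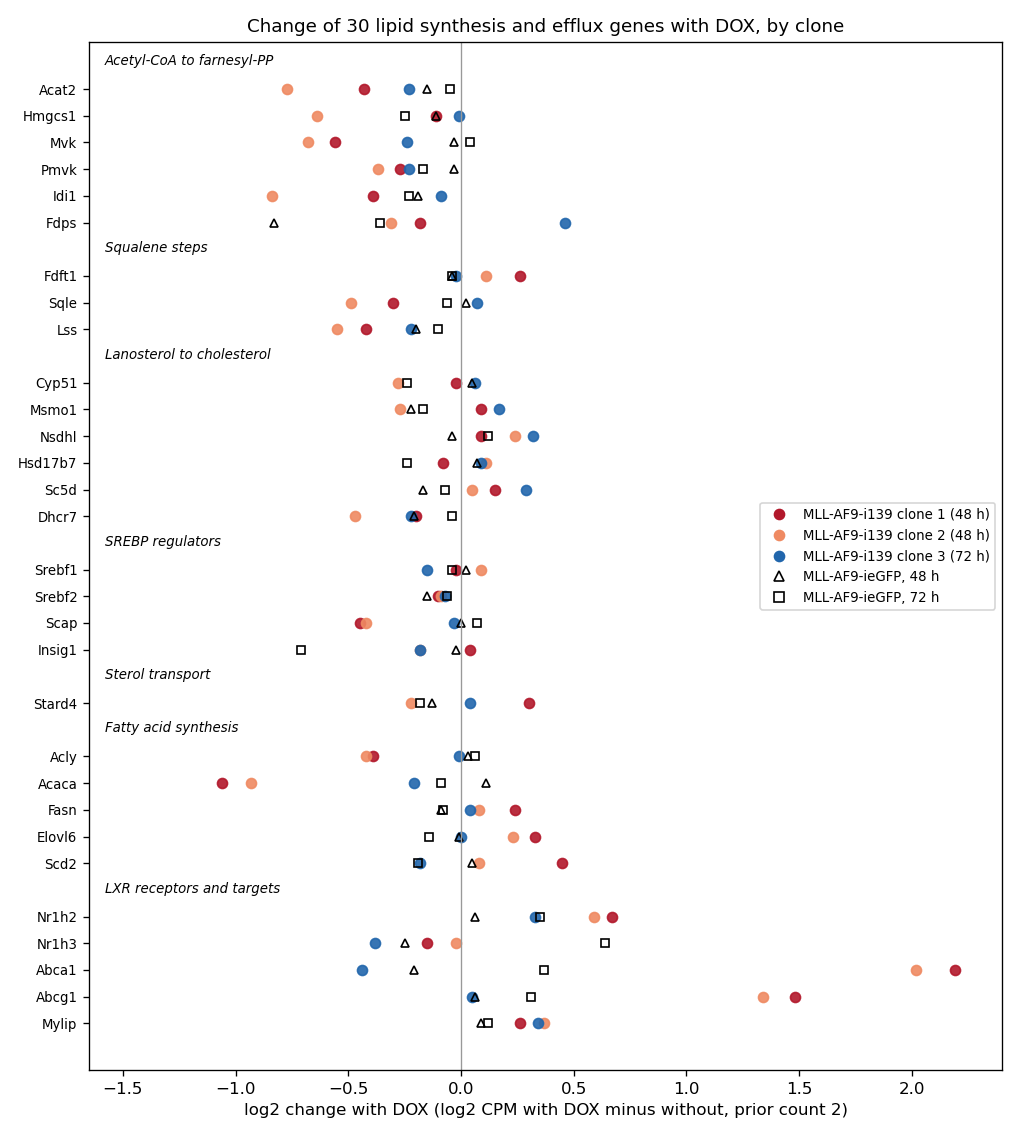
Log2 change with DOX (log2 CPM with DOX minus without, prior count of 2; x axis) of the 30 members with at least 100 counts, grouped by role; filled points are the 3 MLL-AF9-i139 clones and open symbols the MLL-AF9-ieGFP clone at 48 h and 72 h. Abca1 and Abcg1 lie between 1.34 and 2.19 in clones 1 and 2 and between -0.44 and 0.05 in clone 3, and Acaca has the lowest value, -1.06 in clone 1.

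Among the LXR members, Abca1, the transporter that loads cholesterol onto lipid-poor apolipoprotein, had 1.09, 1.14 and 1.29 CPM without DOX in clones 1, 2 and 3 (53, 50 and 51 counts) and 5.12, 4.76 and 0.940 CPM with DOX (245, 187 and 37 counts). Clones 1 and 2 with DOX stood far above the untreated libraries and clone 3 with DOX below them, so the groups overlap. The log2 fold change was 1.64 (standard error, SE, 0.55, edgeR adjusted p = 0.162), and 0.0204 was the adjusted p with DESeq2. Abcg1, which exports cholesterol to high-density lipoprotein, had 36.0, 35.7 and 30.2 CPM without DOX and 101, 90.4 and 31.2 CPM with it. Again clones 1 and 2 were high with DOX, and clone 3 with DOX lay within the untreated range. The log2 fold change was 1.14 (SE 0.37, edgeR adjusted p = 0.156, and 0.0192 with DESeq2). The blocked fit gave an adjusted p of 0.0999 for Abca1 and of 0.0537 for Abcg1 (edgeR).

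Nr1h2, which encodes LXRβ, had 28.9, 33.4 and 28.3 CPM without DOX and 45.9, 50.2 and 35.6 with DOX in clones 1, 2 and 3. All 3 DOX-treated libraries lay above all untreated ones. Its log2 fold change was 0.55 (SE 0.15, edgeR adjusted p = 0.124), and it rose with the clone as a block (0.54, SE 0.10, edgeR adjusted p = 0.0278). Mylip had 41.2, 38.9 and 30.1 CPM without DOX and 49.4, 50.3 and 38.3 with it. Within each clone the DOX-treated library was higher, by 0.26, 0.37 and 0.34 on the log2 scale, while the groups overlap because clone 3 was lower in both states. Without the block the adjusted p of Mylip was 0.274, and with it 0.0428 (edgeR). Nr1h3, which encodes LXRα, rested on few counts, with 33, 44 and 41 counts without DOX and 29, 39 and 31 with DOX, a log2 fold change of -0.18 (SE 0.30, edgeR adjusted p = 0.781). Other genes cover 36.6% of its body, where reads can be lost to the overlap.

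**Figure D2:**
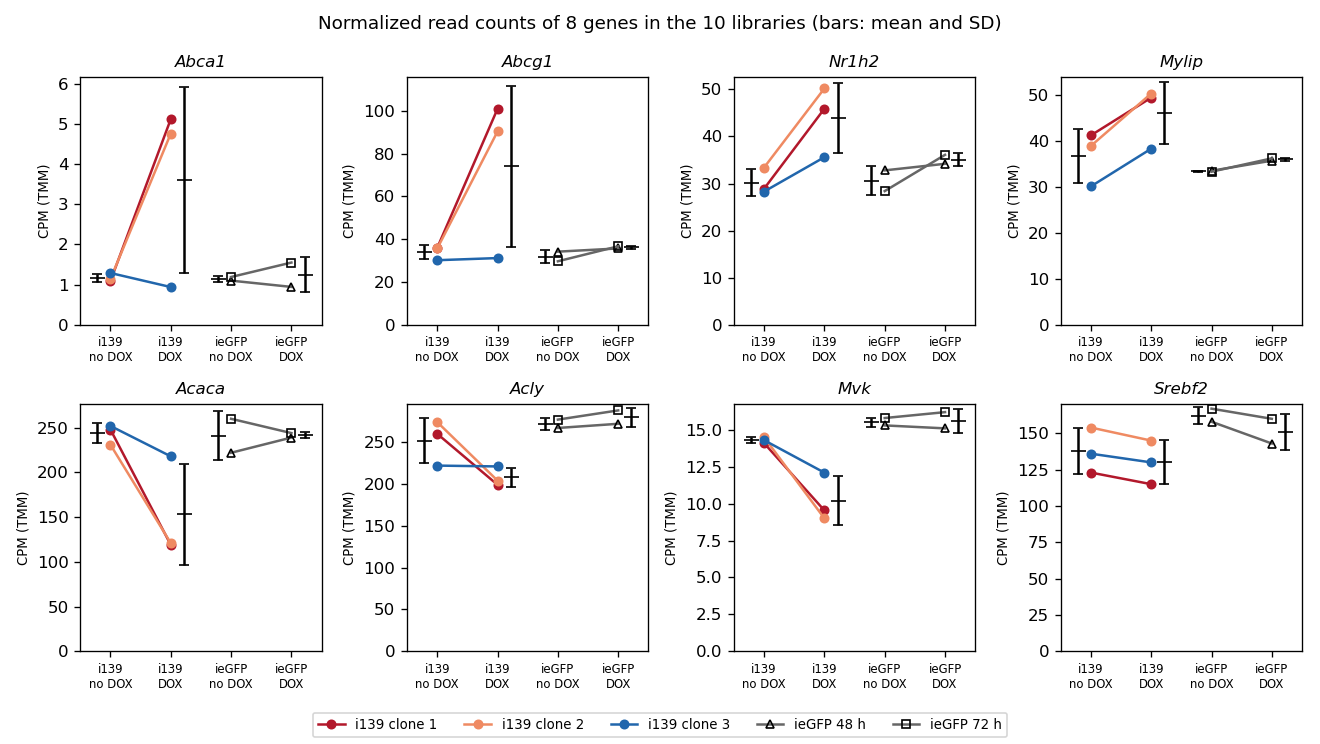
CPM (y axis, from 0) of 8 members in each library, with lines joining the libraries of 1 clone or 1 time and bars giving the mean and SD of each group. Abcg1 reaches 101 and 90.4 CPM with DOX in clones 1 and 2 and 31.2 in clone 3, Acaca falls to 119 and 121 CPM in clones 1 and 2, and Srebf2 differs little with DOX in any pair.

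As with Abca1 and Abcg1, the sum of the macrophage markers was further from its untreated level in clones 1 and 2 than in clone 3. Of 9 macrophage markers, 6 had at least 10 counts, the defining markers Marco and C1qa were at 0 and C1qb had fewer than 10 counts. Their sum ran from 11.5 to 16.3 CPM in the untreated MLL-AF9-i139 clones and was 35.8, 30.8 and 13.2 CPM with DOX in clones 1, 2 and 3, a fold within the clone of 2.19, 2.21 and 1.16. Not every marker followed the sum: Mertk changed by -1.66, -0.87 and 0.20 on the log2 scale, and Mrc1 rested on 17 counts. The 8 neutrophil markers summed to 102, 73.2 and 58.4 CPM without DOX and to 245, 252 and 131 with it, a fold of 2.42, 3.44 and 2.25, so this sum was higher with DOX in clone 3 as well, by nearly as much as in clone 1. Ngp gave most of it. The single markers differed in their pattern over clones 1, 2 and 3. Cxcr2 changed by 4.89, 4.6 and 1.5 and Lcn2 by 2.0, 2.05 and 0.99 on the log2 scale, least in clone 3. Ltf changed by -0.2, 0.91 and 0.85 and Camp by -0.15, 0.71 and 0.62, so both were lower with DOX in clone 1. Mmp8, Mmp9 and Retnlg rested on 81, 17 and 18 counts over the 10 libraries. In the blocked fit, where 12.4% of all genes passed, 1 macrophage, 3 neutrophil, 4 progenitor and 1 mast cell marker rose (edgeR). In the same fit 1 progenitor marker, Hoxa9, fell. Of the progenitor markers that rose, Cd34 rested on 37 counts over the 10 libraries. In MLL-AF9-ieGFP the macrophage sum stayed between 11.4 and 14.4 CPM. The neutrophil sum there was 87.6 and 132 CPM without DOX at 48 h and 72 h and 102 and 152 CPM with it. Without DOX at 72 h this sum was thus level with that of clone 3 under DOX, 131 CPM. The part of these cell-state differences in the results of the LXR members was not tested, and in bulk RNA more cells of a type and more RNA per cell cannot be told apart.

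In the first stage of cholesterol synthesis, from acetyl-CoA to farnesyl diphosphate, the 6 measured members were lower with DOX in both clone 1 and clone 2, where 38.7% of all genes tested were lower in both. Their median log2 change was -0.33 in clone 1, -0.66 in clone 2 and -0.16 in clone 3, beside -0.02, 0.01 and 0.00 over all genes. In MLL-AF9-ieGFP, where DOX induces eGFP, all 6 were also lower with DOX at 48 h (median -0.13), as were 9781 of 19223 genes. At 72 h 5 of the 6 were lower (median -0.20), as were 9080 of these genes. Mvk, the kinase that phosphorylates mevalonate, had 14.1, 14.5 and 14.3 CPM without DOX and 9.54, 9.0 and 12.1 with DOX. The untreated libraries were alike and those with DOX all lay below them. The log2 fold change was -0.47 (SE 0.16, edgeR adjusted p = 0.161), with an adjusted p of 0.0511 with the block (edgeR) and of 0.0465 with DESeq2. Acat2, the cytosolic thiolase that joins the first acetyl units, had 24.3, 30.7 and 21.6 CPM without DOX and 18.0, 18.0 and 18.4 with it. Here too the groups did not overlap, and the untreated level of clone 2 was the highest. Its log2 fold change was -0.48 (SE 0.15, edgeR adjusted p = 0.141, and 0.0461 with DESeq2).

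Of 8 genes of cycling cells, 1 fell with the clone as a block (Ccna2, adjusted p = 0.0282, edgeR), where 12.4% of all genes passed. The median log2 change of the 8 was -0.31, -0.35 and -0.13 in clones 1, 2 and 3. The part of this shift in the values of the synthesis members was not tested. The other members of this stage were not past the threshold by edgeR, its blocked fit or DESeq2. Pmvk, the next kinase after Mvk, changed by -0.27, -0.37 and -0.23 on the log2 scale in clones 1, 2 and 3, and Idi1, the isopentenyl isomerase, by -0.39, -0.84 and -0.09. Hmgcs1, the synthase whose sterol element is shown above, changed by -0.11, -0.64 and -0.01, and another gene covers 34.6% of its body. Fdps, farnesyl diphosphate synthase, had 529 counts in all 10 libraries with 89.7% of its body inside other genes, and its changes of -0.18, -0.31 and 0.46 go in both directions.

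Of the 3 members from farnesyl diphosphate to lanosterol, Lss, lanosterol synthase, was lower with DOX in each clone, by -0.42, -0.55 and -0.22 on the log2 scale, with no overlap of the groups and an adjusted p of 0.207 (edgeR). Another gene covers 44.1% of the body of Lss, where reads can be lost to the overlap. Sqle, the epoxidase that is a rate-limiting step, changed by -0.30, -0.49 and 0.07. Fdft1, squalene synthase, went the other way in clones 1 and 2, with 0.26 and 0.11, and was at -0.02 in clone 3. None of the 3 passed by edgeR with or without the block or by DESeq2.

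The 6 members that turn lanosterol into cholesterol had a median log2 fold change of 0.03, beside 0.01 over all genes (edgeR). Dhcr7, the last reductase, was lower in each clone, by -0.20, -0.47 and -0.22 on the log2 scale, with an adjusted p of 0.0878 in the blocked fit (edgeR). Nsdhl and Sc5d, a decarboxylating dehydrogenase and a desaturase, were higher in each, by 0.09, 0.24 and 0.32 and by 0.15, 0.05 and 0.29. In both, no library with DOX overlapped those without. Cyp51, Msmo1 and Hsd17b7, a demethylase, a methyl oxidase and a ketoreductase, had fold changes between -0.06 and 0.05 with SEs of 0.11 to 0.13. None of the 6 passed by edgeR with or without the block or by DESeq2.

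None of the 4 SREBP regulators passed by edgeR with or without the block or by DESeq2. Srebf2 had 123, 154 and 136 CPM without DOX and 115, 145 and 130 with it, and Srebf1 had 83.4, 83.0 and 88.2 without and 82.3, 88.2 and 79.5 with. Both groups overlap, and the clones differed more from each other in Srebf2 than with DOX. The log2 fold changes were -0.07 (SE 0.13) for Srebf2 and -0.01 (SE 0.09) for Srebf1, with adjusted p of 0.784 and 0.957 (edgeR). Insig1, itself an SREBP target, had 19.2, 19.6 and 16.0 CPM without DOX and 19.8, 17.3 and 14.1 with it, a log2 fold change of -0.09 (SE 0.16, edgeR adjusted p = 0.805). Scap was the exception in 2 clones, with 106, 113 and 114 CPM without DOX and 77.3, 84.7 and 112 with it. Clones 1 and 2 were low with DOX and clone 3 lay within the untreated range, and the adjusted p was 0.315, or 0.110 with the block (edgeR). Stard4, which carries sterol between membranes, changed by 0.30, -0.22 and 0.04 on the log2 scale in clones 1, 2 and 3.

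In fatty acid synthesis, 1 of the 6 members, Acaca, passed with the clone as a block. Acaca encodes acetyl-CoA carboxylase, which makes malonyl-CoA, the committed step. It had 248, 231 and 252 CPM without DOX and 119, 121 and 218 with DOX in clones 1, 2 and 3. The 3 libraries with DOX lay below the 3 without, clone 3 only slightly. Acaca fell with the clone as a block (log2 fold change -0.72, SE 0.16, edgeR adjusted p = 0.0348) and with DESeq2 (adjusted p = 0.0483), and its adjusted p without the block was 0.161 (edgeR). Its body is 15.9 times as long as its exons, so reads from introns could weigh in its counts if they were counted. Acly, which makes cytosolic acetyl-CoA from citrate, had 260, 274 and 222 CPM without DOX and 199, 204 and 221 with it. Clones 1 and 2 were lower with DOX and clone 3 was level, with an adjusted p of 0.209 (edgeR).

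Downstream of malonyl-CoA, Fasn, fatty acid synthase, had 527, 658 and 556 CPM without DOX and 622, 698 and 571 with it, a log2 fold change of 0.13 (SE 0.12, edgeR adjusted p = 0.582). The groups overlap, and no DOX-treated library was below its own clone without DOX. Elovl6, an elongase, changed by 0.33 and 0.23 on the log2 scale in clones 1 and 2 and had 47.2 CPM both with and without DOX in clone 3. Scd2, a desaturase, changed by 0.45, 0.08 and -0.18 in clones 1, 2 and 3. Scd1, its paralog, had 17 counts over the 10 libraries, too few for a fold change to be read.

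Counted over members, all DOX-treated libraries lay above all untreated ones in 3 members, which were Nr1h2, Nsdhl and Sc5d, where this held for 12.0% of genes tested. They lay below in 8 members, against 12.8% of genes. The 8 were Acat2, Mvk, Pmvk, Idi1, Lss, Acly, Acaca and Scd1, the last on its 17 counts.

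Leaving out clone 3 changed the calls over all genes and not only in the members. Without it 3981 of 18359 genes tested passed, where 12 of 19223 did with all 3 clones (edgeR). Of the members, 4 then rose (Abca1, Abcg1, Nr1h2 and Mylip), against 11.6% of genes that were higher. Another 5 fell (Acaca, Acly, Acat2, Mvk and Scap), against 10.1% of genes that were lower (edgeR, 2 clones in each group). The adjusted p was then 0.00104 for Abca1, 0.000223 for Abcg1 and 0.000481 for Acaca (edgeR). Without clone 1 or without clone 2, 0 members passed (edgeR). An unadjusted p under 0.05 was then reached by 0 and 1 members, against 7.12% and 5.73% of genes (edgeR). DESeq2 was not run without a clone. In clones 1 and 2 the fold of Abca1 was 4.55 and 4.04, that of Abcg1 2.80 and 2.53 and that of Acaca 0.480 and 0.524. Clone 3 with DOX at 72 h is 1 pair of libraries, and the difference between it and the other clones was not tested.

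Set against each other per pair of libraries, Abca1 and Abcg1 had a median log2 change of 1.84 in clone 1 and 1.68 in clone 2, while the 15 measured members from acetyl-CoA to cholesterol had -0.18 and -0.37. In clone 3 the medians were -0.20 for efflux and -0.01 for synthesis. Efflux minus synthesis was 2.02 and 2.04 in clones 1 and 2 and -0.18 in clone 3. In MLL-AF9-ieGFP it was 0.04 at 48 h and 0.44 at 72 h. The wide gap in clones 1 and 2 came mostly from the efflux side. Abca1 and Abcg1 had the largest rises of the LXR members there, so the size of the gap depends on this choice. Over all 5 LXR members the median log2 change was 0.67, 0.59 and 0.05 in clones 1, 2 and 3.

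**Figure D3:**
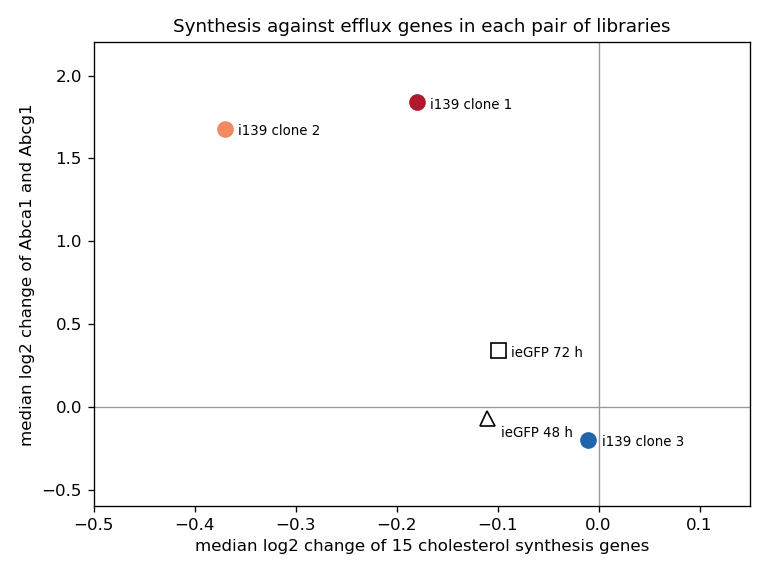
Median log2 change with DOX of Abca1 and Abcg1 (y axis) against that of the 15 measured cholesterol synthesis members (x axis), 1 point for each of the 5 pairs of libraries. Clones 1 and 2 of MLL-AF9-i139 lie at 1.84 and 1.68 on the y axis, and the other 3 pairs lie between -0.20 and 0.34.

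In MLL-AF9-ieGFP, 0 of 31 members passed the threshold, with 0 at an unadjusted p under 0.05 (edgeR), and 0 passed with DESeq2. The background was 0% of 20269 genes tested, with 259 genes at an unadjusted p under 0.05 (edgeR) and 1 gene past the threshold with DESeq2. Abcg1 had 34.2 and 29.7 CPM without DOX at 48 h and 72 h and 35.7 and 36.7 with it. Acaca had 222 and 260 CPM without DOX and 239 and 244 with it. In both genes the DOX-treated libraries lay near or within the range of all 5 untreated libraries of the study. The 5 LXR members were all higher with DOX at 72 h (median log2 change 0.35), as were 9976 of 19223 genes. At 48 h 3 of the 5 were higher (median 0.06), as were 9315 of these genes. At 72 h Nr1h3 rested on 24 counts without DOX and 41 with it, and Abca1 on 41 and 57. Nr1h2 had 28.4 CPM without DOX and 36.1 with it at 72 h, a log2 change of 0.35 next to 0.33 in clone 3 of MLL-AF9-i139. Insig1 was lower at 72 h alone, with 23.4 CPM without DOX and 14.2 with DOX, against 19.0 and 18.7 at 48 h.

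The interaction of DOX with the construct asks whether the change differed between MLL-AF9-i139 and MLL-AF9-ieGFP. It passed the threshold for 0 members, against 0.00493% of genes tested (edgeR), and for 0 members with DESeq2. An unadjusted p under 0.05 was reached by 2 members and by 9.17% of genes (edgeR). The interaction was 1.5 for Abca1 (SE 0.79, adjusted p = 0.588), 0.94 for Abcg1 (SE 0.51, adjusted p = 0.593) and -0.68 for Acaca (SE 0.31, adjusted p = 0.547), all on the log2 scale (edgeR). Without clone 3 it passed for 5 members (Abca1, Abcg1, Acaca, Acly and Scap), against 10.2% of genes (edgeR). With the 48 h libraries alone, a fit added after the data were seen, 3 members passed, against 2.69% of genes, with interactions of 2.36 for Abca1, 1.35 for Abcg1 and -1.11 for Acaca (adjusted p = 0.0409, 0.0144 and 0.0156, edgeR). In that fit MLL-AF9-ieGFP has 1 library in each state, so its spread is assumed to be that of the 2 MLL-AF9-i139 clones.

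Of 32 further genes of sterol and lipid metabolism, 31 were tested, and in the blocked fit 3 rose and 2 fell (edgeR), beside 12.4% of all genes. Lipa, the lysosomal lipase that frees cholesterol from its esters, rose by 0.99 (SE 0.22, adjusted p = 0.0366), with 1.49, 1.17 and 0.24 in clones 1, 2 and 3. Npc2, which hands that cholesterol on inside the lysosome, rose by 0.44 (adjusted p = 0.0339, edgeR), and Rxrb, a partner of the LXRs, by 0.36 (adjusted p = 0.0467, edgeR). The 2 that fell were Gpam and Acsl3. Gpam, the first acyltransferase of triglyceride synthesis, had a log2 fold change of -0.80 (SE 0.12, edgeR adjusted p = 0.0226) and Acsl3, an acyl-CoA synthetase, of -0.69 (SE 0.15, edgeR adjusted p = 0.0332). Without the block 0 of the 31 passed, with 8 at an unadjusted p under 0.05, beside 20.6% of all genes (edgeR). With DESeq2 2 of the 31 passed, beside 8.09% of all genes.

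Matches to the seed of the induced microRNA were read because a microRNA can lower transcripts that carry them. Both strands of mouse miR-139 are given from RefSeq, 5′ to 3′, with the seed (bases 2 to 8) in capitals.
miR-139-5p: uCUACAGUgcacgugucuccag
miR-139-3p: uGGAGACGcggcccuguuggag
A match to bases 2 to 8, or to bases 2 to 7 followed by an A, for miR-139-5p stood in the longest annotated 3′ UTR of 12 of the 31 members (38.7%), and of 21.7% of 13995 tested genes with a 3′ UTR. The median 3′ UTR was 1600 bases in the members and 1092 over all these genes. For miR-139-3p, 1 member (3.23%) had a match, Srebf2, and 15.9% of genes did.

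The matched sites of Abca1, Abcg1, Acly and the first site of Fasn, each within 30 bases of 3′ UTR, are shown as examples from efflux and fatty acid members. The bases that pair with the seed, with the A where it counts, are in capitals (GRCm38, chr4:53032686-53032715 minus, chr17:31115506-31115535 plus, chr11:100477209-100477238 minus and chr11:120807303-120807332 minus).
Abca1: attttaagatcCTGTAGAgcactattcatt
Abcg1: tcgtatcttatCTGTAGAgaatgataaggg
Acly: ccaggagccctACTGTAGgaaaaggaagac
Fasn: ccccagcagacACTGTAGcccgtggccctt
Of the 12 members with a match, 7 were higher with DOX in both clones 1 and 2 (Fdft1, Sc5d, Fasn, Elovl6, Scd2, Abca1 and Abcg1) and 4 were lower in both (Hmgcs1, Lss, Acly and Scd1). Of the 19 without one, 3 were higher in both and 12 lower in both, beside 38.1% and 38.7% of all genes tested. Acaca, Mvk, Acat2 and Scap were among the 12, with no match in this window. No difference between the members with and without a match was tested.

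**Figure D4:**
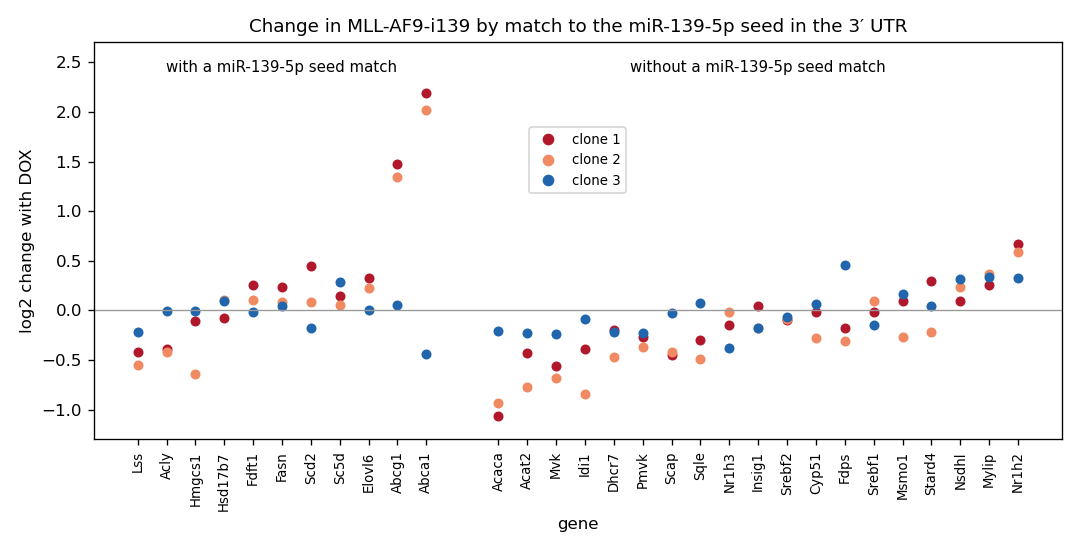
Log2 change with DOX (y axis) in the 3 MLL-AF9-i139 clones for the 30 members with at least 100 counts, ordered by log2 fold change within those with and without a miR-139-5p seed match in the 3′ UTR. Abca1 and Abcg1, the highest in clones 1 and 2, carry a match, and Acaca, the lowest, does not.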

How the data were processed

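The 10 libraries are 6 of MLL-AF9-i139 and 4 of MLL-AF9-ieGFP. The authors used STAR to map rRNA-depleted reads to GRCm38 and featureCounts to assign them to genes, and deposited raw counts. The counting settings are not given in the sources used here, and genes that overlap others can lose reads. One table held 14 columns of other samples, which were not used. Counts were tested with edgeR 4.0.16 (quasi-likelihood, TMM, genes with at least 10 counts in total, Benjamini-Hochberg over all genes, threshold 0.05), on the 6 MLL-AF9-i139 libraries, and on all 10 for MLL-AF9-ieGFP and the interaction. DESeq2 1.42.0, RLE size factors, 2 other filters, the clone as a block and leaving out each library pair were alternatives. The code was tested on simulated data. The labels number the clones, and the samples were paired by these numbers. Libraries with the same number deviated together over 19223 genes (Pearson's r 0.378, 0.285 and 0.411). Libraries with different numbers were not compared in this way. CPM are TMM-normalized, and the change within a clone is the log2 CPM with DOX minus that without (prior count 2). Members were matched by symbol to gene identifiers without version. The members and lists were chosen with earlier results of these data known. Members past the threshold with or without the block, the LXR members and the regulators were to be given in full, with at most 6 further pathway genes past the blocked threshold that had 1 sign in the 3 clones. Other members given in full, such as Mvk, Acat2 and Acly, were chosen after their values were seen. P-values of the unblocked MLL-AF9-i139 fit measure the spread between its clones, and those of the blocked fit the spread of the changes within clones. In the fits of all 10 libraries, the spread also holds the 48 h and 72 h cultures of the single MLL-AF9-ieGFP clone. One gene of the macrophage list is not reported here.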

Additional observations from a re-analysis of the deposited data

Results flagged for a closer look

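In 4 members all 3 MLL-AF9-i139 clones changed with DOX in one direction and both MLL-AF9-ieGFP times in the other. The share of all genes with this pattern was not counted. For Acly the changes were -0.39, -0.42 and -0.01 in the clones and 0.03 and 0.06 at 48 h and 72 h, and the interaction was -0.32 on the log2 scale (adjusted p = 0.546, edgeR). For Fasn they were 0.24, 0.08 and 0.04 against -0.09 and -0.08, with an interaction of 0.20 (adjusted p = 0.700, edgeR). For Sc5d they were 0.15, 0.05 and 0.29 against -0.17 and -0.07, with an interaction of 0.28 (adjusted p = 0.602, edgeR). For Scd1 the interaction was -5.52 (adjusted p = 0.527, edgeR) on 17 counts over the 10 libraries. None of the 4 differences passed the threshold.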

How the results depend on the processing

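The number of genes past the threshold between DOX-treated and untreated MLL-AF9-i139 clones was 12 (edgeR), and it was 1556 with DESeq2, 6 with at least 10 counts in 3 libraries, 562 with no filter, 2381 with the clone as a replicate block and 1234 with all 10 libraries in the fit. Of the members, 0 passed, and 6 did with DESeq2, 3 with the replicate block and 2 with all 10 libraries (Nr1h2 and Acat2). Leaving out a clone moved the genes between 0 and 3981 and the members between 0 and 9, the highest of each without clone 3. The median log2 fold change of the synthesis members was -0.22 and lay between -0.30 and -0.05 with a clone left out, the nearest to 0 without clone 2. That of the fatty acid members, -0.07, was 0.13 with the stricter filter, which drops Scd1, and that of the LXR members stayed between 0.48 and 0.64. In MLL-AF9-ieGFP, 0 genes passed, and 1 did with DESeq2 and with no filter. The interaction of DOX with the construct passed for 1 gene, and for 82 with DESeq2, 71 with no filter, 38 with the replicate block, 0 with the stricter filter and 517 with the 48 h libraries alone. Leaving out a library pair moved it between 0 and 2011 genes and between 0 and 5 members, and the 48 h libraries alone gave 3 members. The replicate block changed no other call of a member. Where a fit is not described here, direction and side of the threshold were kept except in small changes, the cause of which was not tested.

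Small log2 fold changes changed sign. With a clone left out, those in MLL-AF9-i139 lay between -0.24 and 0.13 for Fdps, -0.12 and 0.03 for Cyp51, -0.07 and 0.14 for Msmo1, -0.07 and 0.05 for Srebf1, -0.11 and 0.18 for Stard4, and -0.03 and 0.28 for Scd2, and Msmo1 was at -0.0013 with all 10 libraries. In MLL-AF9-ieGFP, with a library pair left out, they lay between -0.02 and 0.02 for Mvk, -0.08 and 0.03 for Sqle, -0.26 and 0.06 for Cyp51, -0.03 and 0.10 for Nsdhl, -0.26 and 0.08 for Hsd17b7, -0.05 and 0.03 for Srebf1, -0.00015 and 0.05 for Scap, -0.11 and 0.12 for Acaca, -0.20 and 0.05 for Scd2, -0.26 and 0.66 for Nr1h3, and -0.21 and 0.37 for Abca1. Acaca was at -0.0032 there with DESeq2 and -0.0031 with RLE size factors. The interaction lay between -0.17 and 0.12 for Hmgcs1, -0.13 and 0.20 for Cyp51, -0.03 and 0.31 for Hsd17b7, -0.07 and 0.08 for Srebf1, -0.08 and 0.65 for Insig1, and -0.84 and 0.07 for Nr1h3. With the 48 h libraries alone it was -0.20 for Cyp51, -0.06 for Hsd17b7, 0.01 for Srebf1, -0.05 for Insig1 and 0.18 for Nr1h3, and it was 0.00012 for Srebf1 with RLE size factors. Nr1h3, Scd1 and Fdps rest on few counts, which limits what their values can show.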
